A study of Homo sapiens with 6 samples.

Results

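The origin recognition and licensing factors are the proteins that mark the sites where DNA replication starts and prepare them for use. The group was taken by gene symbol and holds ORC1 to ORC6, CDC6, CDT1, GMNN and CDC7. All 10 genes were found among the 30618 genes with counts, and all 10 were also found among the FPKM values and passed the filter on low counts that left 16749 genes. RNA-seq was performed on 6 libraries of ARPE-19, an immortal cell line of human retinal pigment epithelium, kept in 50 mM glucose to model diabetic retinopathy. The NC group received a negative control siRNA and the siEIF1 group an siRNA against EIF1, a translation initiation factor, with 3 biological replicates in each. High glucose and transfection were shared by both groups, so the comparison is between the siRNAs within high glucose, in 1 cell line. The study's methods list 1 sequence against EIF1, so the loss of EIF1 cannot be told apart from other effects of that siRNA. The time between transfection and the harvest for RNA-seq is not given in the sources used here.

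Origins are licensed in G1, before S phase. The origin recognition complex (ORC) binds DNA, CDC6 joins it, and together with CDT1 they load the MCM helicase in an inactive form. Geminin, the product of GMNN, binds CDT1 once S phase has begun and so prevents a further round of loading. The kinase CDC7, activated by its partner DBF4, then phosphorylates the loaded MCM proteins so that the helicase can start. In proliferating cells the transcripts of ORC1, CDC6, CDT1 and GMNN are known targets of E2F transcription factors, and their amounts follow the share of cells in cycle, whereas those of ORC2 to ORC5 vary little.

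Most licensing transcripts were scarcer after the knockdown of EIF1. CDC6, ORC6, CDC7, CDT1 and ORC1 fell to between 0.24 and 0.41 of NC (fitted fold, n = 3 per group), and GMNN fell to 0.57. Of the 4 remaining genes, ORC5 and ORC2 fell to 0.83 and 0.85, and ORC4 and ORC3 had folds of 0.89 and 0.95 that did not pass the test. In all, 8 of 10 genes were lower at an adjusted p under 0.05 (edgeR's quasi-likelihood test, Benjamini-Hochberg adjustment over all tested genes), where 10.4% of all tested genes were lower by the same rule. With the additional limit of a fold change below 0.5, 5 of 10 were called, against 1.31% of all tested genes, and 0 of 10 were higher. The normalised counts (CPM, counts scaled to the depth of the library) of the groups did not overlap for 9 of 10 genes, ORC3 being the exception, and this was the case in the same direction for 18.9% of all tested genes. The median log2 fold change was -1.06 for the 10 genes and 0.0033 for all tested genes. Such a fall in bulk RNA cannot tell fewer cells in cycle from less RNA of these genes per cell.

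**Figure D1:**
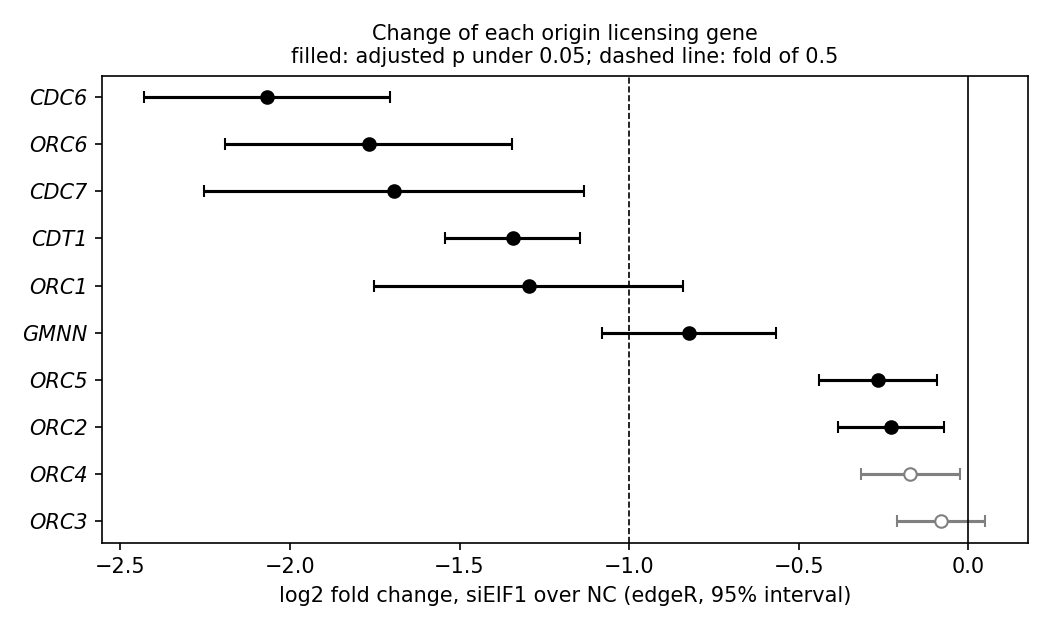
Log2 fold change of each licensing gene (siEIF1 over NC, x axis) with its 95% interval from edgeR's quasi-likelihood fit, 3 libraries per group. Filled points had an adjusted p under 0.05, the dashed line is a fold of 0.5, and the 6 genes from CDC6 (-2.07) to GMNN (-0.82) lie apart from ORC5 (-0.27), ORC2 (-0.23), ORC4 (-0.17) and ORC3 (-0.08).

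The libraries held between 26499929 and 31431479 counts. EIF1 itself stood at 281.08 to 294.35 FPKM (fragments per kilobase of exon, scaled to the depth of the library) in NC and at 22.68 to 24.28 FPKM in siEIF1, or 8.22% of the NC mean (log2 fold change -3.58, adjusted p = 1.08e-13). Of the 14 markers of retinal pigment epithelium examined, 12 were among the genes with counts, RPE65 and TTR being absent. Of the 9 that were tested, 3 rose and 0 fell, where 10.2% of all tested genes rose. Those that rose were RLBP1 (log2 fold change 1.55), KRT18 (0.25) and KRT8 (0.24). The summed FPKM of the 12 markers was 522.8 to 541.7 in NC and 565.6 to 611.6 in siEIF1. KRT18 (mean of 326 FPKM in NC), KRT8 (113), BEST1 (66.0) and OTX2 (17.8) were well expressed, and the keratins made up most of the sum. MITF (5.84) and SERPINF1 (1.70) were lower. PMEL (0.27), RLBP1 (0.24), LRAT (0.12), TYRP1 (0.063) and CDH1 (0.0033) were scarce, and the pigment gene TYR had at most 2 counts in a library. The endothelial markers summed to 0.03 to 0.06 FPKM in NC and 0.06 in siEIF1, the immune markers to 0.83 to 0.98 and 0.83 to 1.01 FPKM, and the neural and glial markers to 0.31 to 0.45 and 0.34 to 0.47 FPKM. The pericyte markers summed to 6.66 to 9.41 FPKM in NC and 11.3 to 13.6 in siEIF1, nearly all of it PDGFRB, while KCNJ8, another pericyte marker, had at most 3 counts. Of the 3 pericyte markers tested, 1 rose. The part of these shifts in the results below was not tested.

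The promoters of the genes are shown because E2F factors are the best known regulators of licensing genes. RefSeq start sites on GRCh38.p14 gave 13 windows for the 10 genes, each from 250 bases before to 50 bases after a start. They were searched on both strands for TTTNNCGC (N is any base), a form of the E2F motif that is free only at N. Sites that differ from it at a fixed letter were not counted. It was found for 6 of 10 genes, in 6 of 13 windows, while 6.89% of the 35116 windows of all genes held it. That share is per window, was not limited to genes expressed here and was not matched for base composition. Those genes were CDC6, CDT1, CDC7, GMNN, ORC6 and ORC3, of which the first 5 fell and ORC3 did not pass the test. The CHR motif TTTGAA was found in 0 of 13 windows and in 15.2% of all windows. The CCAAT motif was found in 6 of 13 windows (ORC1, ORC2, ORC3, ORC6, CDC6 and GMNN), and 34.6% of all windows held it. A match describes these letters only, and does not show that a factor bound there.

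Shown are the 30 bases around the E2F match nearest to the start site, on the strand of the gene, with the match in capitals; in CDT1, CDC7, ORC6 and ORC3 the match lies on the opposite strand, so that its reverse complement is shown.
CDC6: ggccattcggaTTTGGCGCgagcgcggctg
CDT1: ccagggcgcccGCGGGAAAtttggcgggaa
CDC7: tccgacctgcgGCGGGAAAgtcgcgcgcct
GMNN: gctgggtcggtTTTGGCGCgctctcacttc
ORC6: ttgatgcgcatGCGCAAAAggaagaccctg
ORC3: cgcgagggcgcGCGGGAAAtcccgagtgca
They lie at chr17:40287875-40287904 (CDC6), chr16:88803743-88803772 (CDT1), chr1:91501067-91501096 (CDC7), chr6:24775322-24775351 (GMNN), chr16:46689525-46689554 (ORC6) and chr6:87590112-87590141 (ORC3), all on the forward strand. For GMNN and CDC7 the match is in the window of an alternative RefSeq start, and the window at the start of the canonical transcript held none. The matches began 35 bases before the start site of their window in CDT1, 34 in CDC7, 80 in GMNN, 123 in ORC6 and 12 in ORC3, and at base 8 of the transcript in CDC6. The identical 8 letters GCGGGAAA are present in CDT1 and CDC7, which fell, and in ORC3.

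The promoter of ORC1 is given beside them because ORC1 fell about as far as CDT1 and has no match to TTTNNCGC in its window. That window does hold attggcgc, which differs from the pattern only in its first base. The 130 bases from 100 before to 30 after the RefSeq start, at chr1:52404394-52404523 on the reverse strand, are as follows, with the CCAAT match, which lies on the opposite strand, left in lower case like the rest.
ORC1: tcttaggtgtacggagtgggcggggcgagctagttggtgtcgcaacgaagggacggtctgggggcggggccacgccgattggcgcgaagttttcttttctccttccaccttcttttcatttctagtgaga

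CDC6 is the ATPase that joins ORC to load the helicase, and it had the most negative fold change of the 10 genes. The gene (ENSG00000094804.12) lies on the forward strand at chr17:40287879-40304657 (GRCh38, GENCODE release 44). Its FPKM was 2.81, 2.02 and 2.06 in NC replicates 1 to 3 and 0.49, 0.43 and 0.71 in siEIF1 replicates 1 to 3. The highest siEIF1 value stayed well under the lowest NC value, and NC replicate 1 was above the other NC libraries. The log2 fold change was -2.07 (standard error 0.168, adjusted p = 2.62e-06). Its interval overlapped those of ORC6, CDC7 and ORC1.

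CDT1 recruits the MCM helicase to ORC and CDC6. The gene (ENSG00000167513.9) lies on the forward strand at chr16:88803789-88809258. Its FPKM was 5.92, 6.0 and 5.11 in NC replicates 1 to 3 and 2.27, 2.22 and 2.13 in siEIF1 replicates 1 to 3. The groups were well apart, and the siEIF1 libraries differed little from each other. The log2 fold change was -1.34 (standard error 0.0921, adjusted p = 7.89e-07), with the smallest p-value of the 10 genes. Its 95% interval, from -1.54 to -1.14, did not overlap that of CDC6, from -2.43 to -1.71.

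**Figure D2:**
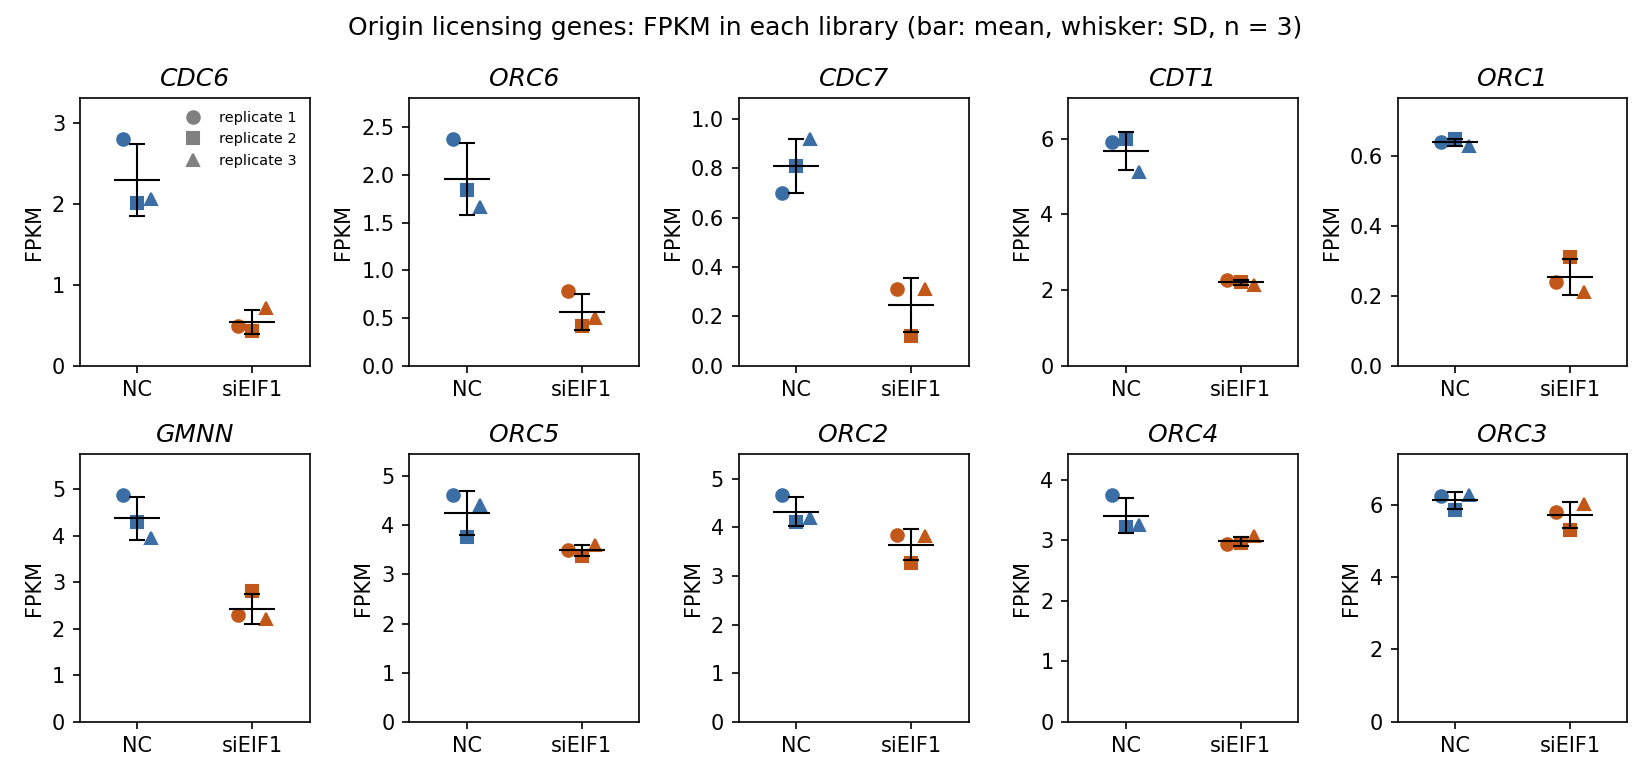
FPKM (y axis, from 0) of each licensing gene in the 3 NC and 3 siEIF1 libraries, with the replicate number as marker shape, the mean as a bar and the SD as whiskers. CDC6 drops from 2.02 or more in NC to 0.71 or less in siEIF1, and the groups overlap for ORC3, at 5.84 to 6.26 in NC and 5.31 to 6.02 in siEIF1.

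GMNN encodes geminin, the inhibitor of CDT1. The gene (ENSG00000112312.10) lies on the forward strand at chr6:24774931-24786099. Its FPKM was 4.87, 4.30 and 3.94 in NC replicates 1 to 3 and 2.29, 2.80 and 2.20 in siEIF1 replicates 1 to 3. The groups did not overlap. GMNN fell by 0.82 on the log2 scale (standard error 0.119, adjusted p = 3.15e-04), which is not past the limit of a fold of 0.5.

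The RNA of CDT1 was compared with that of its inhibitor within libraries. The proteins were not measured, so the balance between them is not known. The FPKM of CDT1 divided by that of GMNN in the same library was 1.22, 1.40 and 1.30 in NC replicates 1 to 3 and 0.991, 0.793 and 0.968 in siEIF1 replicates 1 to 3. The ratio was lower in each siEIF1 library than in any NC library. Its level depends on the gene lengths behind the FPKM, and only its change between the groups does not. The log2 ratio was 0.38 ± 0.10 in NC and -0.13 ± 0.18 in siEIF1 (SD, n = 3), a difference of -0.51 (two-sided exact permutation test, p = 0.1). That is the smallest p which 3 libraries against 3 allow when they are taken as unpaired. It was also the p of the 4 other ratios given here, with an adjusted p of 0.1 over the 5 ratios. Such a ratio within a library does not depend on the scaling of the libraries.

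ORC1 is the subunit of ORC that is degraded and made again with each cell cycle in human cells. The gene (ENSG00000085840.13) lies on the reverse strand at chr1:52372829-52404423. It had the lowest mean FPKM of the 10 genes in NC, with 65, 71 and 67 counts in NC replicates 1 to 3 and 29, 36 and 24 in siEIF1 replicates 1 to 3. Per length, these are 0.64, 0.65 and 0.63 FPKM in NC and 0.24, 0.31 and 0.21 in siEIF1. In counts, the nearest pair of libraries between the groups was 65 and 36, with exact Poisson intervals (95%) from 50.2 to 82.9 and from 25.2 to 49.8. The log2 fold change was -1.30 (standard error 0.211, adjusted p = 7.72e-04), with an interval from -1.75 to -0.84.

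ORC6, the smallest subunit and the one bound least tightly to the rest, fell further. The gene (ENSG00000091651.9) lies on the forward strand at chr16:46689643-46698394. Its FPKM was 2.38, 1.84 and 1.66 in NC replicates 1 to 3 and 0.78, 0.42 and 0.50 in siEIF1 replicates 1 to 3. No library of the siEIF1 group reached the lowest NC library. The log2 fold change was -1.77 (standard error 0.196, adjusted p = 3.96e-05), and its interval, from -2.19 to -1.35, overlapped that of ORC1.

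The other subunits of ORC, ORC2 to ORC5, form the body of the ring with ORC1. ORC2 (ENSG00000115942.9, reverse strand, chr2:200908977-200963680) had an FPKM of 4.66, 4.10 and 4.19 in NC and 3.83, 3.27 and 3.81 in siEIF1. ORC5 (ENSG00000164815.11, reverse strand, chr7:104126341-104208047) had 4.61, 3.75 and 4.4 FPKM in NC and 3.50, 3.37 and 3.6 in siEIF1. Both were lower in every siEIF1 library, by small amounts. The log2 fold change was -0.23 for ORC2 (standard error 0.0724, adjusted p = 0.0404) and -0.27 for ORC5 (standard error 0.0802, adjusted p = 0.0319). Both calls lay close to the threshold. That of ORC2 was lost without NC replicate 1 (log2 fold change -0.17, adjusted p = 0.163), without NC replicate 2 (-0.26, adjusted p = 0.0546), without NC replicate 3 (-0.26, adjusted p = 0.0636) and without siEIF1 replicate 2 (-0.17, adjusted p = 0.173). That of ORC5 was lost without NC replicate 1 (-0.20, adjusted p = 0.132), without NC replicate 3 (-0.25, adjusted p = 0.107), without siEIF1 replicate 1 (-0.27, adjusted p = 0.0568) and without siEIF1 replicate 2 (-0.26, adjusted p = 0.0991).

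ORC4 (ENSG00000115947.14, reverse strand, chr2:147930396-148021604) had 3.75, 3.22 and 3.26 FPKM in NC and 2.94, 2.95 and 3.07 in siEIF1. These values did not overlap, but the log2 fold change of -0.17 did not pass the test (standard error 0.0672, adjusted p = 0.0939). ORC3 (ENSG00000135336.16, forward strand, chr6:87590067-87667453) had 6.24, 5.84 and 6.26 FPKM in NC and 5.79, 5.31 and 6.02 in siEIF1, and here the groups overlapped. Its log2 fold change was -0.08 (standard error 0.0607, adjusted p = 0.401). The intervals of the difference ran from -0.32 to -0.03 for ORC4 and from -0.21 to 0.05 for ORC3, which for ORC3 corresponds to folds from 0.864 to 1.04. ORC4 overlaps ACVR2A and MBD5 on the opposite strand, by 431 and 594 bases, genes with 244 to 301 and 252 to 408 counts, and ORC2 overlaps ENSG00000183308 by 418 bases, which had 6 to 14 counts. The libraries were directional per the labels, but the strand setting of the counting is not given in the sources used here, so reads from the shared bases are uncertain.

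ORC1, ORC6 and CDC6 were also compared within each library with the geometric mean FPKM of ORC2 to ORC5. ORC1 stood at 0.135, 0.158 and 0.143 of that mean in NC replicates 1 to 3 and at 0.0618, 0.0855 and 0.0526 in siEIF1 replicates 1 to 3. The difference in the log2 ratio was -1.15 (two-sided exact permutation test, p = 0.1). ORC6 stood at 0.503, 0.446 and 0.377 of it in NC and at 0.201, 0.116 and 0.125 in siEIF1, and the difference in the log2 ratio was -1.62 (exact permutation test, p = 0.1). CDC6 stood at 0.593, 0.490 and 0.468 of it in NC and at 0.126, 0.119 and 0.178 in siEIF1, with a difference of -1.89 (exact permutation test, p = 0.1). For each of these 3 ratios the groups did not overlap, with every siEIF1 library below every NC library relative to ORC2 to ORC5.

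**Figure D3:**
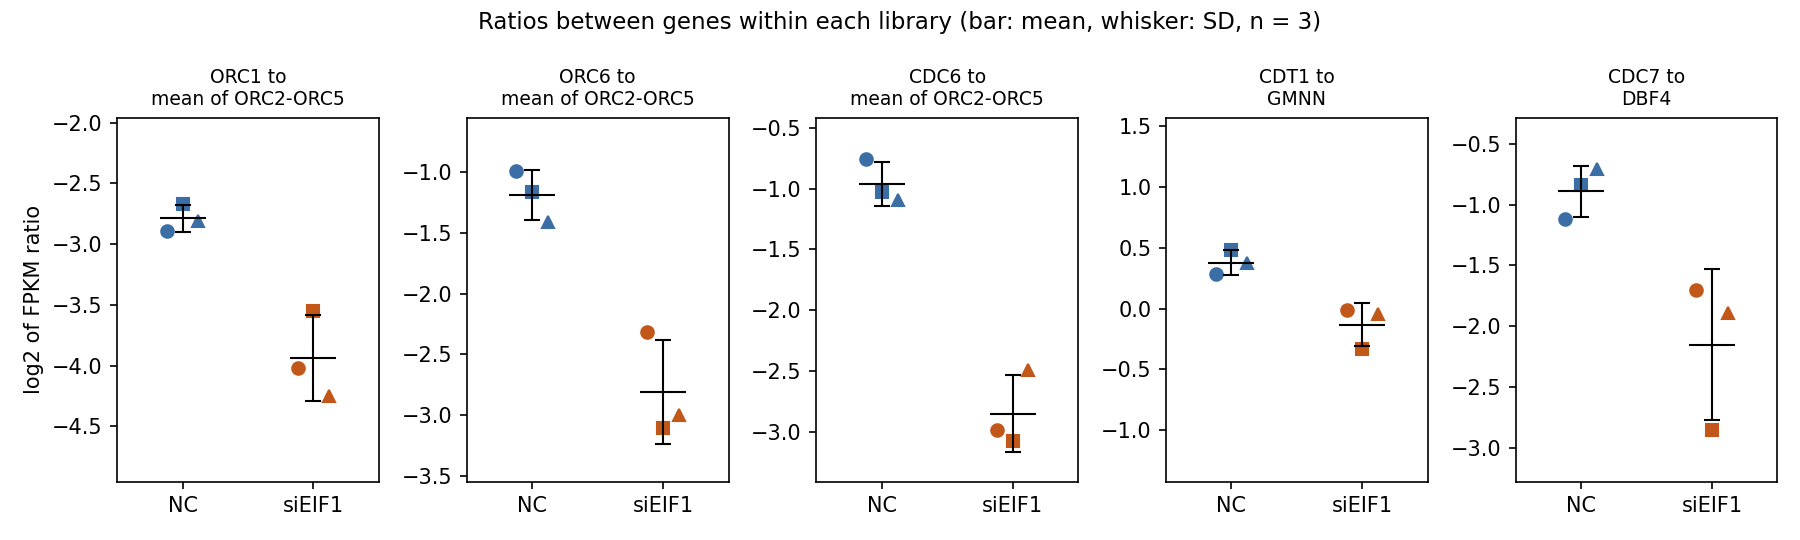
Log2 of the ratio of 2 FPKM values in the same library (y axis, the same span of 3 log2 units in each panel) for 5 pairs, with the replicate number as marker shape (circle 1, square 2, triangle 3), the mean as a bar and the SD as whiskers. The siEIF1 libraries lie below the NC libraries in each panel, and the spread within siEIF1 is widest for CDC7 to DBF4 (SD 0.62).

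CDC7 is the kinase that acts on the loaded helicase. The gene (ENSG00000097046.13) lies on the forward strand at chr1:91500851-91525764. It had 82, 102 and 113 counts in NC replicates 1 to 3 and 43, 16 and 40 in siEIF1 replicates 1 to 3, or 0.70, 0.81 and 0.92 FPKM and 0.31, 0.12 and 0.31 FPKM. siEIF1 replicate 2 was low, and its 16 counts have an exact Poisson interval (95%) from 9.15 to 25.98, which lies below the 43 and 40 counts of the other siEIF1 libraries. The log2 fold change was -1.69 (standard error 0.260, adjusted p = 4.96e-04), and -1.38 without siEIF1 replicate 2.

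DBF4, which CDC7 needs for its activity, was measured as a partner. It had 227, 233 and 235 counts in NC replicates 1 to 3 and 179, 147 and 191 in siEIF1 replicates 1 to 3. DBF4 fell by 0.54 on the log2 scale (standard error 0.111, adjusted p = 0.00375). The FPKM of CDC7 divided by that of DBF4 was 0.461, 0.559 and 0.613 in NC and 0.307, 0.138 and 0.270 in siEIF1, and the groups did not overlap. The difference in the log2 ratio was -1.26 (two-sided exact permutation test, p = 0.1), and -0.91 without siEIF1 replicate 2.

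The order of the genes by level per length changed with the knockdown. In NC, ORC3 (6.11 ± 0.237 FPKM, SD, n = 3) and CDT1 (5.68 ± 0.492) came first and did not differ beyond their spread. GMNN (4.37 ± 0.469), ORC2 (4.32 ± 0.301) and ORC5 (4.25 ± 0.448) followed, also within their spread of each other, and then ORC4 (3.41 ± 0.295). CDC6 (2.30 ± 0.445) and ORC6 (1.96 ± 0.375) overlapped, and CDC7 (0.81 ± 0.11) and ORC1 (0.64 ± 0.01) were the lowest. In siEIF1 the core subunits ORC3 (5.71 ± 0.362), ORC2 (3.64 ± 0.318), ORC5 (3.49 ± 0.115) and ORC4 (2.99 ± 0.0723) came first. GMNN (2.43 ± 0.324) and CDT1 (2.21 ± 0.0709) lay below them, and ORC6 (0.567 ± 0.189), CDC6 (0.543 ± 0.147), ORC1 (0.253 ± 0.0513) and CDC7 (0.247 ± 0.110) were lowest. CDT1 thus stood above ORC2, ORC4 and ORC5 in NC by FPKM and below all of ORC2 to ORC5 in siEIF1. The sum of the 10 FPKM values was 32.4 to 36.6 in the NC libraries and 21.2 to 22.6 in the siEIF1 libraries.

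Levels between genes also depend on the length used. The FPKM values behave as if divided by the length of all annotated exons of a gene together, since the length they imply was 1.23 to 1.24 times that length for each of the 10 genes. This length is 4309 bases for ORC6, whose canonical transcript has 1615 bases, and 3121 bases by either measure for ORC1. With the canonical transcript as length, a choice made after the data were seen, ORC6 in NC stood at 6.44 in place of 1.96 and so lay above ORC4 (5.71) and CDC6 (3.29), while ORC1 (0.787) and CDC7 (1.12) were still lowest and ORC3 (12.3) highest. CDT1 in NC then stood at 7.23, level with ORC2 (7.22) and below GMNN (10.5) and ORC5 (10.1). In siEIF1, CDT1 (2.80) was below GMNN (5.84) as well, so the place of CDT1 above GMNN and ORC5 in NC holds only for the FPKM. Fold changes of a gene between groups are not touched by this choice.

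The replicates did not rank the genes alike. NC replicate 1 was the highest NC library for 7 of the 10 genes by CPM, and NC replicate 3 the lowest for 7. siEIF1 replicate 2 was the lowest siEIF1 library for 6 genes (ORC2, ORC3, ORC5, ORC6, CDC6 and CDC7) and the highest for the other 4 (ORC1, ORC4, CDT1 and GMNN). The RNA of EIF1 was between 22.68 and 24.28 FPKM in the siEIF1 libraries. Whether the depth of the knockdown bears on the differences among them was not tested.

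The genes that act with the licensing factors were examined as lists. Over all tested genes, 10.4% fell at an adjusted p under 0.05 and 1.31% also passed the limit of a fold below 0.5. Of the 6 subunits of the MCM helicase, all 6 fell, with a median log2 fold change of -0.83, and MCM4 (-1.11, standard error 0.0696) and MCM5 (-1.03, standard error 0.0615) passed the limit on the fold. Of 13 genes of helicase activation, which turn the loaded helicase into a moving one, all 13 fell and 7 passed the limit, with a median of -1.01. The smallest p-values in that list were those of GINS2 (-1.54), CDC45 (-1.99) and RECQL4 (-1.26), the first 2 being parts of the active helicase. All 5 genes of the S phase kinases fell (median -0.94), with CDK1 (-1.66) and CCNE2 (-1.82), a cyclin that activates CDK2, past the limit.

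Genes that remove or assist the licensing factors changed less uniformly. The counts below stand beside 10.4% of all tested genes that fell and 10.2% that rose. Of 12 genes for the turnover of CDT1 and CDC6, 4 fell, 1 rose and 7 did not pass the test, and the median was -0.0066. DTL, which directs the CUL4 ubiquitin ligase to CDT1, fell by 1.86 on the log2 scale (standard error 0.142, adjusted p = 1.50e-06). KMT5A (-0.35), PCNA (-0.28) and CCNF (-0.54) also fell, whereas DDB1, the adaptor of the same ligase, rose by 0.21. The call of CCNF, at an adjusted p of 0.0436, was lost without NC replicate 1 (-0.46, adjusted p = 0.161), NC replicate 2 (-0.49, adjusted p = 0.132), siEIF1 replicate 2 (-0.44, adjusted p = 0.166) or siEIF1 replicate 3 (-0.50, adjusted p = 0.0842). Of 10 chromatin partners of ORC and MCM, 2 fell, MCM8 (-1.32, standard error 0.116) and MCMBP (-0.26), and 8 did not pass, with a median of -0.08. Of the 5 listed partners of geminin, 3 were tested, and SMARCA4 (0.27) and SIX3 (0.19) rose. SMARCA4 lost its call in limma on log2(FPKM + 1) (0.21, adjusted p = 0.0697) and on log2(FPKM + 0.1) (0.24, adjusted p = 0.0645). The call of SIX3 was lost without NC replicate 1 (0.16, adjusted p = 0.0656), without siEIF1 replicate 1 (0.17, adjusted p = 0.0546) and without siEIF1 replicate 2 (0.19, adjusted p = 0.0617). KMT5A, PCNA, CCNF, DDB1, MCMBP and SIX3 are named after their values were seen.

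**Figure D4:**
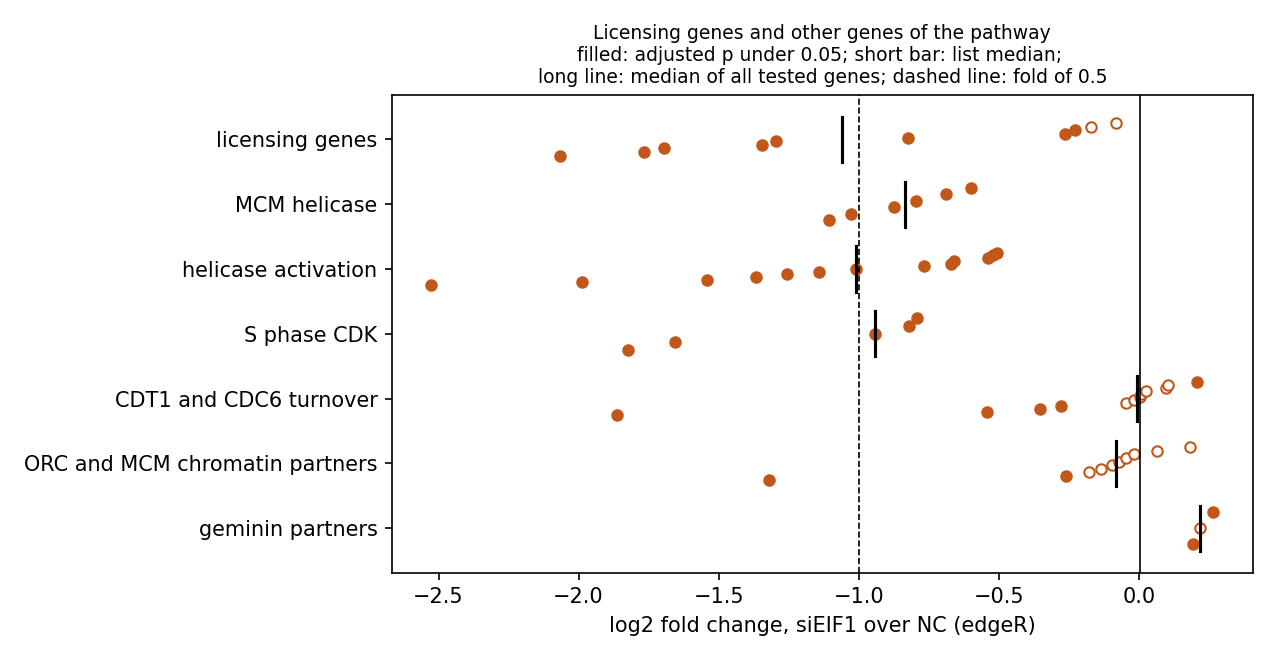
Log2 fold change (siEIF1 over NC, x axis) of the 10 licensing genes and of 6 lists of genes that act with them, 1 point per tested gene, filled at an adjusted p under 0.05. Short bars are list medians (-1.06 for the licensing genes, -0.83 for MCM helicase, -0.0066 for turnover), the long line is the median of all tested genes and the dashed line a fold of 0.5.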

How the data were processed

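The authors trimmed the reads with FASTX-Toolkit 0.0.13, aligned them to GRCh38 with HISAT2, took uniquely mapped reads for each gene, and deposited the raw counts. FPKM for 30275 genes were deposited in a second table. DESeq2 is also among the tools in the submitters' processing notes. The counting program and its annotation are not given in the sources used here. Groups and replicate numbers were taken from the sample titles, and 0 columns were left unmatched. Genes with low counts were removed with filterByExpr, and 16749 genes were fitted with edgeR 4.0.16 in R 4.3.3 (TMM scaling and the quasi-likelihood test, with p-values adjusted by Benjamini and Hochberg). Calls used an adjusted p under 0.05 and, where stated, a fold of more than 2 or less than 0.5, as in the study's methods. Standard errors were derived from the F statistic. Ratios of FPKM within a library were compared by a two-sided exact permutation test. The fit was tested on simulated counts with known changes. The alternatives were RLE and upper-quartile normalization, no count filter, a minimum of 10 counts in every library, DESeq2 1.42.0, limma 3.58.1 on log2(FPKM + 1) and log2(FPKM + 0.1), the replicate number as a block, counts in place of FPKM for the ratios, and leaving out each library.

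Promoter windows came from RefSeq (GRCh38.p14) and gene positions from GENCODE release 44. Protein sequences were not used here. Same-numbered libraries deviated together from their group means (correlations of 0.186, 0.212 and 0.244 across genes), so the numbers may pair the libraries. Pairs of libraries with unlike numbers had correlations from -0.280 to 0.0508. The paper states that library preparation ran in parallel for all samples and that they were sequenced together. It names no batch by replicate number. The main fit and the permutation tests did not use this pairing, and the replicate number entered only as a block in 1 alternative. Libraries of a group differed by more than sampling noise (a chi-square of 2.87 to 12.95 for each degree of freedom). The genes and lists were chosen with earlier results of these data known. Named are the 10 licensing genes, EIF1, DBF4 and, in each list, up to 3 genes past both limits with the smallest p-values, otherwise the gene with the smallest p. Intervals of counts cover counting error only.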

Additional observations from a re-analysis of the deposited data

How the results depend on the processing

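Each of the 10 licensing genes had a negative log2 fold change under all 14 alternatives. Of 140 such values, 128 kept their side of the threshold and 12 lost it, all for ORC2 and ORC5; besides the libraries named above, these were the limma fits on log2(FPKM + 1), at -0.20 for ORC2 and -0.22 for ORC5, and on log2(FPKM + 0.1), at -0.24 and -0.27, against -0.23 and -0.27. The number of genes lower at an adjusted p under 0.05 was 6 to 8, and 6 to 8 when single libraries were left out. The number past both limits was 5 in every alternative but limma on log2(FPKM + 1), where it was 2, a scale that understates changes of genes with low FPKM. A pseudocount of 1 FPKM likewise moved the log2 ratios against ORC2 to ORC5 to -0.23 for ORC1, -0.75 for ORC6 and -0.93 for CDC6, and that of CDC7 to DBF4 to -0.23. With the replicate block, 8 of 10 genes were lower and 5 passed both limits, as without it, and no call changed among the licensing genes, EIF1 and the named genes of the lists. Over all tested genes, 19 were lower by both limits in limma on log2(FPKM + 1) against 219, and 1124 were lower at an adjusted p under 0.05 without siEIF1 replicate 2 against 1744. Of the values of EIF1 and the named list genes, 241 kept their side of the threshold and 11 lost it, for SMARCA4, SIX3 and CCNF; besides those named above, these were CCNF in limma on log2(FPKM + 1) (-0.17) and log2(FPKM + 0.1) (-0.45). ORC1 and CDC7 rest on 16 to 113 counts in a library, so their errors are wider than those of the other genes.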
